A study of Mus musculus with 4 samples.

Results

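The 9 genes described here belong to simple epithelium, the single-layered lining of organs such as the gut, and were measured in sorted IgA-positive cells. They are the keratins Krt8, Krt18, Krt19 and Krt20, the adhesion proteins Epcam and Cdh1, the claudins Cldn3 and Cldn7, and the tight junction scaffold Tjp1. The members were taken by gene symbol from the platform's probe annotation, which found all 9 among the 18193 genes named by a probe set of 1 gene, with 15 probe sets between them. Expression was measured on 4 Affymetrix arrays, 1 per sample, of untreated cells isolated from the small intestine of wild-type (WT) BALB/c females aged 9 weeks. Plasma cells of the gut wall are the main makers of IgA, an antibody class that is released into the gut. In one fraction the cells were IgA+ and carried surface CD11b, the integrin alpha M chain (CD11b-positive, 2 arrays), and in the other they were IgA+ without it (CD11b-negative, 2 arrays). For 1 array of each fraction 1 µg of total RNA was labelled with the One-Cycle kit, and for the other array 0.1 µg with the 3' IVT Express kit. Neither separate animals or sorts for the arrays of a fraction nor pooling of animals is recorded in the labels, so every p-value reflects the spread among these 4 samples alone, and that spread may be technical.

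Keratins are the intermediate filament proteins of epithelial cells, and in simple epithelia the type II keratin Krt8 pairs with the type I keratins Krt18, Krt19 and Krt20. Epcam and Cdh1 (E-cadherin) hold neighbouring epithelial cells together, claudins form the seal of the tight junction, and Tjp1 (ZO-1) ties that seal to the actin skeleton. All are well known from the intestinal epithelium, which lies next to the lamina propria where plasma cells reside, while none is a usual marker of a plasma cell.

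Krt8 and Krt18 encode partner chains of 1 filament, both on chromosome 15, and their promoters are shown with that of Epcam and of Tjp1, the member without a lower signal. RefSeq (GRCm38.p6) windows from 250 bases before to 50 bases after an annotated start were matched for 7 of the 9 members, not for Krt19 or Cdh1. The windows are chr15:102004293-102004592 on the minus strand for Krt8, chr15:102027966-102028265 on the plus strand for Krt18, chr17:87635729-87636028 on the plus strand for Epcam and chr7:65371195-65371494 on the minus strand for Tjp1. Each is printed 5′ to 3′ along the gene, with capitals for matches on either strand to TATAAA (the TATA box), GGGCGG (the GC box) or CAGGTG (an E-box that Snail and Zeb repressors can bind, best known from the Cdh1 promoter).
Krt8: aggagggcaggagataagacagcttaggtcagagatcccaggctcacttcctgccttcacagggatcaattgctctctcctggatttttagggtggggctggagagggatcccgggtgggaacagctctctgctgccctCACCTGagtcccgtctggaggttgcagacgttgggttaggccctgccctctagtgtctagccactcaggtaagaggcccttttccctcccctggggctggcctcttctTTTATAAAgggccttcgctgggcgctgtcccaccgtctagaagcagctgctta
Krt18: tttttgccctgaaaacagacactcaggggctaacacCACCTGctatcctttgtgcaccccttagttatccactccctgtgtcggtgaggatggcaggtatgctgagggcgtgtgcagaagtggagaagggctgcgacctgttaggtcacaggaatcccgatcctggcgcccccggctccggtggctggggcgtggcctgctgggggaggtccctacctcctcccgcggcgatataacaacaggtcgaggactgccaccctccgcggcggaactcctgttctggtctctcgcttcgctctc
Epcam: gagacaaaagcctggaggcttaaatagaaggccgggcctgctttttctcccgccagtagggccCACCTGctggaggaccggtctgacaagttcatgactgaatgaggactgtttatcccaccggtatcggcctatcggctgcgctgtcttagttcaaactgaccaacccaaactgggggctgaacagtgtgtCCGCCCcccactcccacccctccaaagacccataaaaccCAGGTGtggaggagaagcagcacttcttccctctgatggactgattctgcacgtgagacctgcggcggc
Tjp1: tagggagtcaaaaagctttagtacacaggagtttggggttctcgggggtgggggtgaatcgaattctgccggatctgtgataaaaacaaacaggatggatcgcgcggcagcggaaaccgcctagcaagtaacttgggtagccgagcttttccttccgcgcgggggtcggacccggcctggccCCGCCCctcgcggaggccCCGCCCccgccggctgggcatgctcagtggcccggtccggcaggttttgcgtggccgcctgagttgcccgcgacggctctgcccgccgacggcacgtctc
Of the 8 windows of the 7 members (Cldn7 has an extra start), CAGGTG was in 5, against 20.2% of 32851 promoter windows of this length. GGGCGG was in 4, against 35.7%, and TATAAA in 2 (Krt8 and Krt20), against 13.6%. Relative to the annotated start, the TATAAA matches began at -3 and -1 in Krt8 and at -29 in Krt20. AACCNGTT, a site of Grainyhead-like epithelial factors, was in 0 of the 8 and in 2.09% of all windows. Matches to these motifs did not overlap each other in the printed windows, apart from TATAAA in Krt8, which is matched on both strands. These matches describe letters only.

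The deposited signals had not been brought to a common level, with medians of 17.5 to 18.3 on CD11b-positive arrays and 14.7 to 16.1 on CD11b-negative arrays, so signals below are quantile-normalized unless said otherwise. The sort showed in Itgam, the gene of CD11b, at 189 and 109 in CD11b-positive against 28.3 and 15.8 in CD11b-negative arrays. Differences were tested with limma over the 12645 genes above a low-signal filter, on log2(signal + 3), which understates changes of weak genes. All 9 members passed that filter. Wherever 2 signals are given for a fraction, the One-Cycle array comes before the 3' IVT Express array. For the beta-actin control, the 3' signal over the 5' signal, a measure that grows when RNA is degraded, was 1.43 and 1.61 in CD11b-positive against 1.90 and 1.84 in CD11b-negative arrays. For the Gapdh control the same ratio was nearly equal, at 0.682 and 0.710 in CD11b-positive against 0.685 and 0.704 in CD11b-negative arrays. The part of RNA quality in the results was not tested. In bulk samples such as these, fewer cells of a type and less RNA per cell cannot be told apart.

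Most of these epithelial genes were lower in the CD11b-positive fraction. With both labelling kits 8 of the 9 were lower, Tjp1 being the exception, where 30.5% of all genes tested were lower with both kits. For the same 8 the 2 fractions did not overlap, with all CD11b-positive signals below all CD11b-negative ones, against 17.3% of all genes. The median log2 difference of the 9 was -1.25 (quartiles -1.46 and -0.67), beside 0.0027 (quartiles -0.24 and 0.23) over all genes tested. By limma without a block, no member had an adjusted p under 0.05 (smallest 0.467), and 0% of all genes did (smallest adjusted p = 0.306, 12645 genes); unadjusted, 7 members were lower at p under 0.05, against 3.52% of all genes. With the labelling kit as a block in the same model, 7 of the 9 fell, namely Krt8, Krt18, Krt19, Epcam, Cdh1, Cldn3 and Cldn7, against 4.14% of all genes, and 0 rose, against 3.73%. That blocked fit has 1 residual degree of freedom and leans on a variance prior worth 25.6 degrees of freedom shared over genes. With 2 arrays in each fraction the smallest two-sided p of an exact permutation test is 0.333, so none is given for single genes.

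**Figure D1:**
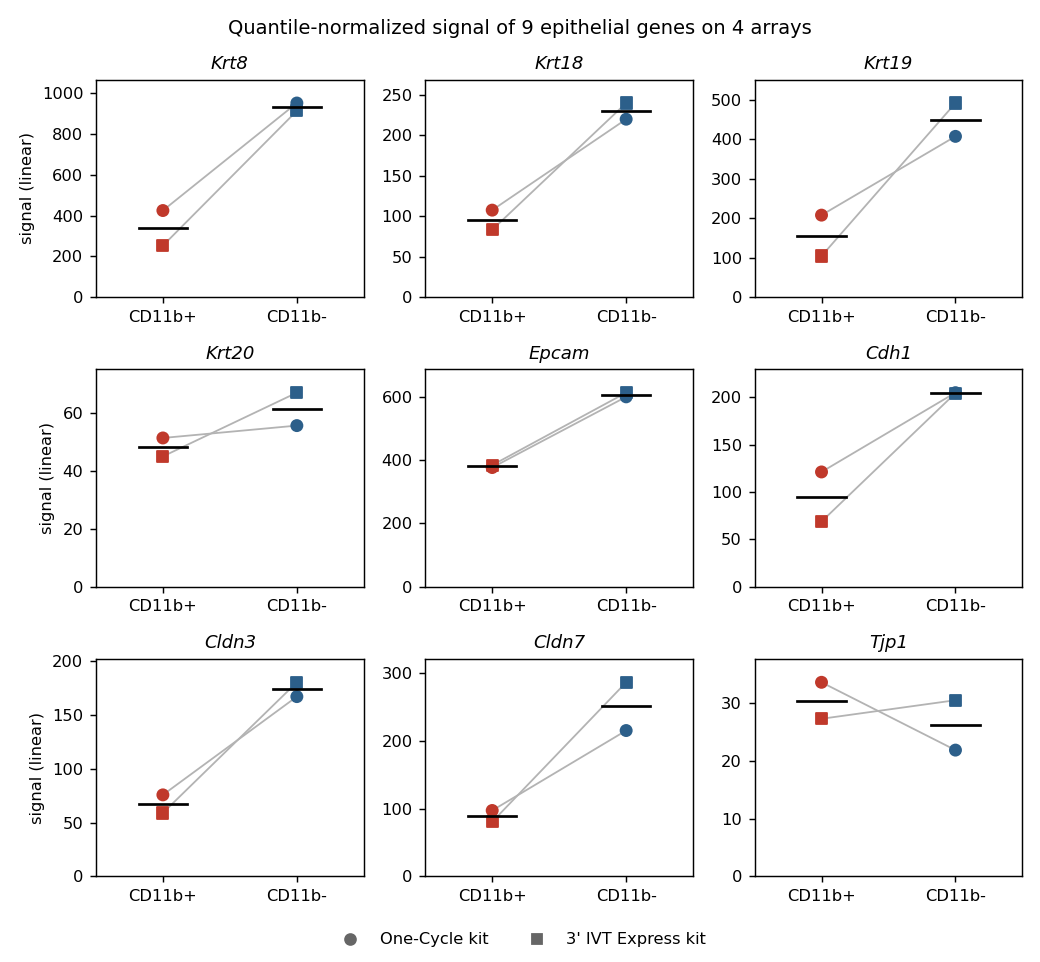
Quantile-normalized signal (linear axis from 0) of the 9 genes on each of the 4 arrays, CD11b-positive at the left of each panel; circles are One-Cycle and squares 3' IVT Express arrays, grey lines join arrays of the same kit and black bars are fraction means (n = 2). Both CD11b-positive arrays lie below both CD11b-negative arrays in every panel except that of Tjp1.

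Among the keratins, Krt8, the type II chain of simple epithelium, had signals of 425 and 253 in CD11b-positive arrays, against 952 and 914 in CD11b-negative arrays. Its level in the CD11b-positive fraction was thus spread more widely than in the CD11b-negative one, with no overlap between them (339 ± 122 against 933 ± 27.1, SD, n = 2 each). The difference was 2.83-fold, or -1.50 on the log2 scale with a 95% interval of -2.14 to -0.86 (limma adjusted p = 0.467, and 1.50e-08 with the kit as a block). Krt18, the type I partner of Krt8, stood at 107 and 83.1 in CD11b-positive against 220 and 240 in CD11b-negative arrays. It was 2.38-fold lower (log2 -1.25, SE 0.24; limma adjusted p = 0.467, and 1.68e-05 with the block), and its profile over the 4 arrays was the closest of all members to the median profile of the 9.

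Krt19, a type I keratin of the intestinal lining, had 208 and 104 in CD11b-positive against 407 and 492 in CD11b-negative arrays. This was the member with the largest mean difference, 2.998-fold or -1.58 on the log2 scale (SE 0.34; limma adjusted p = 0.506, and 1.10e-06 with the block), and also the one whose kits differed most, at -0.96 with the One-Cycle and -2.21 with the 3' IVT Express kit. Krt20, a keratin of mature enterocytes at the surface, had 51.3 and 44.9 in CD11b-positive against 55.6 and 66.9 in CD11b-negative arrays. Although the fractions did not overlap, its log2 difference of -0.33 had a 95% interval of -0.99 to 0.34 and it did not pass with either fit (limma adjusted p = 0.914, and 0.569 with the block). The keratin of surface cells thus had values nearer to 0 difference than the 3 other keratins, though whether it differed from them was not tested.

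Of the adhesion proteins, Epcam, a surface glycoprotein on nearly all simple epithelia, was at 377 and 384 in CD11b-positive against 600.01 and 613 in CD11b-negative arrays. The arrays of each fraction lay close together, and the difference was nearly the same with both kits, -0.667 and -0.670 on the log2 scale. Epcam was 1.59-fold lower (95% interval of the log2 difference -1.08 to -0.25; limma adjusted p = 0.588, and 3.28e-04 with the block). Its blocked call depended on scaling, with a limma adjusted p of 0.0889 after median centring and 0.684 on the signals as deposited, where the One-Cycle arrays held 387 for CD11b-positive and 379 for CD11b-negative cells. Cdh1, the cadherin of epithelial adherens junctions, had 121 and 68.8 in CD11b-positive against 205 and 204 in CD11b-negative arrays. The CD11b-negative arrays were thus almost equal and the CD11b-positive arrays both lower but apart from each other. Cdh1 was 2.20-fold lower (log2 -1.14, SE 0.31; limma adjusted p = 0.610, and 1.82e-04 with the block).

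Of the tight junction genes, Cldn3, a sealing claudin, had 75.6 and 58.9 in CD11b-positive against 167 and 180.01 in CD11b-negative arrays. It was 2.53-fold lower (log2 -1.34, SE 0.25; limma adjusted p = 0.467, and 3.46e-05 with the block). Cldn7, a claudin found along the lateral membrane of intestinal epithelial cells, had 97.1 and 80.4 in CD11b-positive against 215 and 286 in CD11b-negative arrays. The fractions were well apart, and the difference was 2.75-fold (log2 -1.46, SE 0.25; limma adjusted p = 0.467, and 2.86e-06 with the block). Tjp1, a scaffold that endothelial and other cells also carry, had weak signals of 33.6 and 27.3 in CD11b-positive against 21.9 and 30.5 in CD11b-negative arrays. Here the fractions overlapped and the kits gave opposite signs, 0.56 and -0.15 on the log2 scale. The mean difference of 0.21 had a 95% interval of -0.64 to 1.05 (limma adjusted p = 0.956, and 0.829 with the block), so a change of the size of the claudins' was outside the interval.

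**Figure D2:**
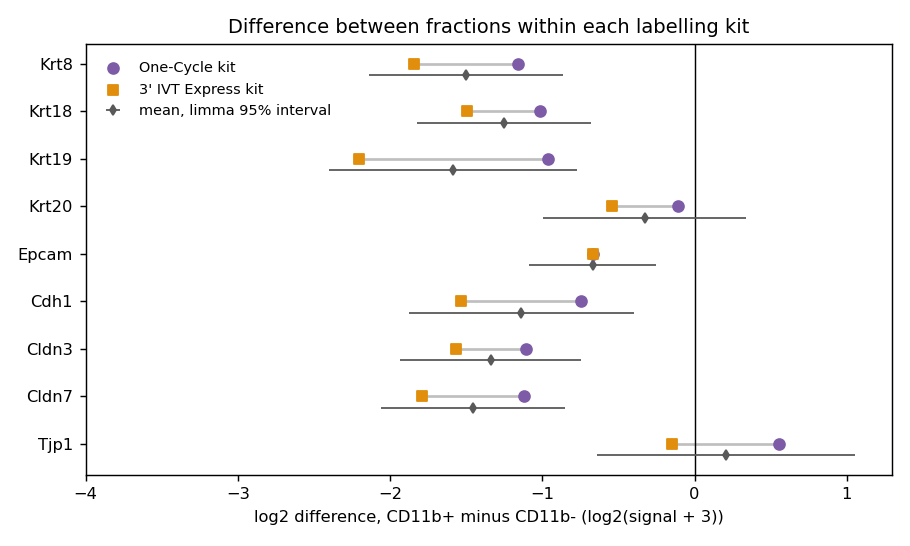
Log2 difference, CD11b-positive minus CD11b-negative, of the 9 genes within the One-Cycle kit (circles) and the 3' IVT Express kit (squares), 1 array per fraction and kit, with the mean of the kits and its limma 95% interval (fit without the block) as diamonds below. All squares lie left of or on the circles, and the intervals of Krt20 and Tjp1 include 0.

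The size of the difference moved with the kit. It was larger towards lower with the 3' IVT Express than with the One-Cycle kit for 9 of the 9 members, though for Epcam by almost nothing, where 49.1% of all genes tested had the more negative difference with the 3' IVT Express kit. The members' median was -0.96 with the One-Cycle and -1.53 with the 3' IVT Express kit, and that of all genes -0.009 and 0.014. With the One-Cycle and the 3' IVT Express kit, Krt8 was 2.23-fold and 3.59-fold lower, Krt19 1.95-fold and 4.62-fold, and Cdh1 1.67-fold and 2.89-fold. On the quantile-normalized signals the CD11b-negative arrays gave close levels for Krt8, Epcam, Cdh1 and Cldn3, so there the gap between kits for Krt8 and Cdh1 lay in the CD11b-positive arrays. That placement depended on scaling. As deposited, Krt8 was at 436 and 330 in CD11b-positive against 594 and 898 in CD11b-negative arrays, and Cdh1 at 127 and 83.0 against 137 and 205. With 1 array per fraction and kit, the difference between kits has no test, and the kit cannot be told apart from the sample it was used on.

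Probe sets that measure the same gene mostly gave the same direction. Krt8 has 3, Cldn3 4 and Epcam 2, and the other 6 members have 1 each. In all, 12 of the 15 were lower with both kits, 0 were higher with both and 3 had mixed signs. The 3 probe sets of Krt8 gave mean log2 differences from -1.52 to -1.34. For Cldn3, 3 probe sets gave -1.41 to -1.34, while the weakest, with 34.2 and 17.9 in CD11b-positive against 26 and 58.7 in CD11b-negative arrays, was at 0.36 with the One-Cycle and -1.56 with the 3' IVT Express kit. The second Epcam probe set, whose name marks possible cross-hybridisation, had 101 and 133 in CD11b-positive against 99.2 and 144 in CD11b-negative arrays, a mean difference of -0.04. The lower Epcam signal thus rested on the brighter of its 2 probe sets.

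**Figure D3:**
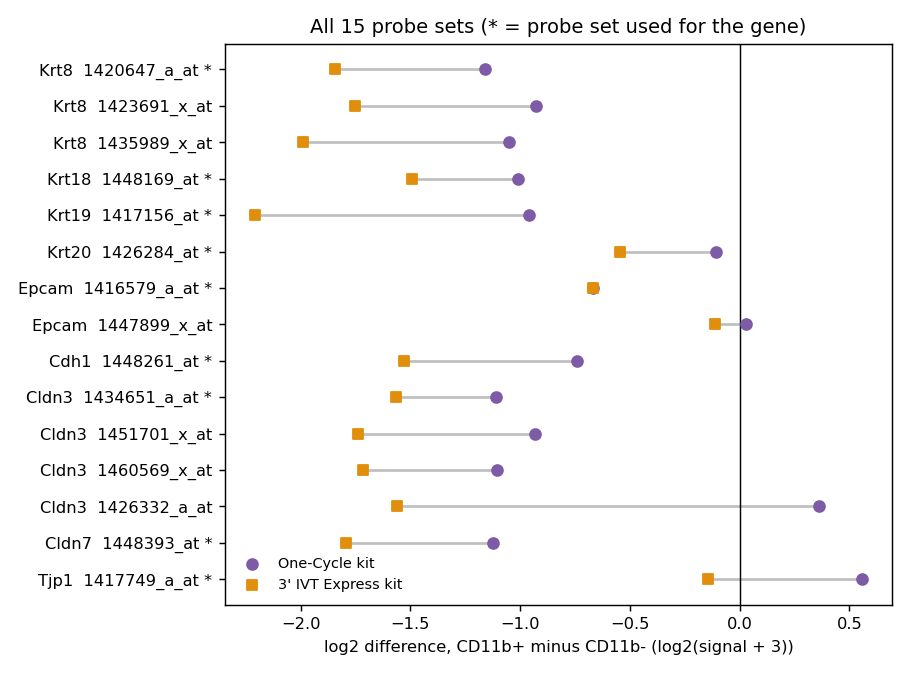
Log2 difference, CD11b-positive minus CD11b-negative, of each of the 15 probe sets within the One-Cycle kit (circles) and the 3' IVT Express kit (squares); an asterisk marks the probe set used for the gene, the brightest. The Krt8 probe sets lie together, and the second Epcam, the weakest Cldn3 and the Tjp1 probe sets have a circle right of 0.

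A ratio of 2 signals within an array does not depend on a factor that scales the whole array. On the deposited signals, log2 of Krt8 over Epcam was 0.17 and -0.63 in CD11b-positive against 0.65 and 0.55 in CD11b-negative arrays. Its CD11b-positive values were below its CD11b-negative values with both kits, by -0.48 and -1.18. Of the 8 other members set against Epcam in this way, 6 had a lower ratio in the CD11b-positive array with both kits, from -0.14 for Cdh1 to -0.52 for Cldn7 with the One-Cycle kit and from -0.96 for Krt18 to -1.66 for Krt19 with the 3' IVT Express kit. Krt20 was at 0.36 and -0.07, and Tjp1 at 0.93 and 0.28. Epcam was taken as the denominator after its values were seen, and these ratios carry no test.

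The scaling of the arrays moved the sizes. On the signals as deposited the median of all genes was itself 0.42 on the log2 scale, and after median centring 0.23, the CD11b-positive arrays being the brighter ones. Relative to that median the members' median lay between -1.26 and -1.20 under the 5 scalings (quantile, as deposited, median centring, a common trimmed mean and cyclic loess). Krt8, Krt18, Krt19, Cdh1, Cldn3 and Cldn7 were lower with both kits under all 5, taken as they stand, Epcam under 4 and Krt20 under 3. Relative to the median of all genes all 8 were lower with both kits under all 5, and Tjp1 under 0. On the deposited signals Krt20 reversed to 0.02.

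**Figure D4:**
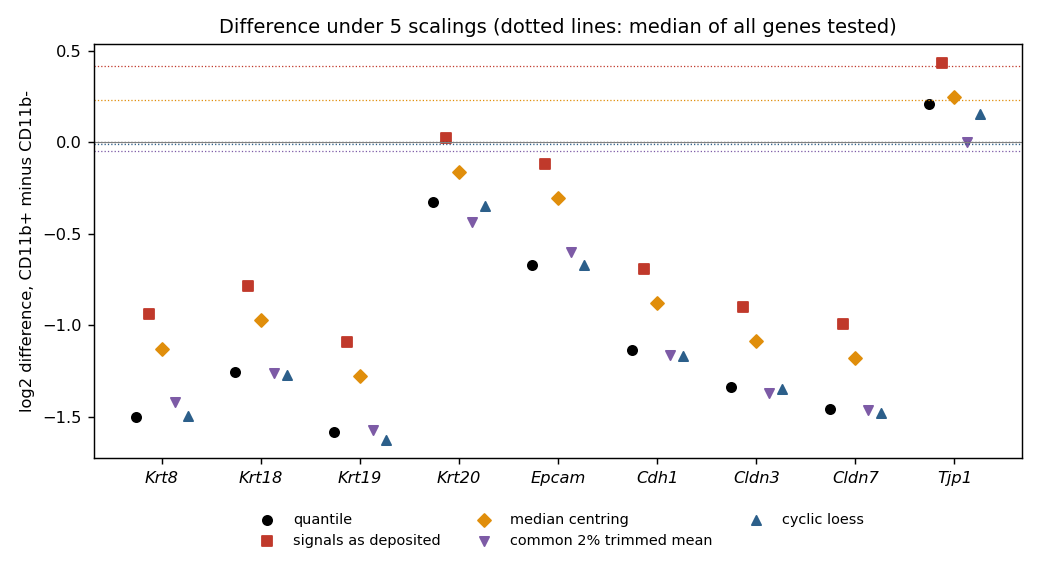
Log2 difference, CD11b-positive minus CD11b-negative (mean of the kits), of each of the 9 genes under 5 scalings of the arrays; dotted lines in the same colours show the median of all genes tested under each. The deposited signals (squares) lie highest, with their median of all genes at 0.42, and Tjp1 stays near or above 0 throughout.

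Other genes of the same structures were taken from lists of other simple keratins, other claudins, tight junction and polarity proteins, adherens junctions, desmosomes and epithelial surface and transcription genes. The keratins of stratified epithelium are described apart from them below. Over these 6 lists, 61 further genes were tested, each counted once, and 44 were lower with both kits and 6 higher, against 30.5% and 31.6% of all genes. Those directions were counted on quantile-normalized signals, and they depended on scaling, as given below for claudin, adherens junction and desmosome genes. The 61 had a median log2 difference of -0.56. With the block 14 of them fell and 0 rose, against the 4.14% and 3.73% of all genes. Those counts depended on scaling, with 6 lower and 4 higher in the blocked fit without rescaling (deposited signals), 9 and 1 after median centring, 13 and 0 with a common trimmed mean, and 12 and 0 with cyclic loess. Over all 12656 genes tested, the blocked fit called 154 (1.22%) lower and 3655 higher on the deposited signals. After median centring it called 232 (1.83%) lower and 2205 higher. With a common trimmed mean 3.32% of all genes were lower, and with cyclic loess 3.68%. Of the genes named below from these lists, Cldn4, Cdh17 and Lgals4 passed the blocked fit under 5 of 5 scalings. By limma without the block none of these, nor of the lists of other cells below, had an adjusted p under 0.05 (smallest 0.546).

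Of the other simple keratins, 3 were tested, 0 were lower and 1 was higher with both kits, and none passed with the block. Krt7, found in some ductal and glandular epithelia, had 17.4 and 11.3 in CD11b-positive against 17.1 and 28.5 in CD11b-negative arrays. Krt80 had 18.2 and 22.2 in CD11b-positive against 6.61 and 5.19 in CD11b-negative arrays, where both signals lay below the low-signal filter of 9.51, and Krt222 37.1 and 49.2 against 45.4 and 33.7. Keratins of stratified epithelium, such as skin, were weak. Of 12 on the array 5 passed the filter, 0 were lower and 1 was higher with both kits, 0 passed with the block, and their summed signal was 97.2 and 132.8 in CD11b-positive against 92.2 and 108.7 in CD11b-negative arrays. Krt6a, the one with the smallest p, had 25.1 and 27.8 in CD11b-positive against 9.68 and 28.2 in CD11b-negative arrays (limma adjusted p = 0.922).

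Of 7 other claudins tested, 6 were lower with both kits and 3 fell with the block, against 30.5% and 4.14% of all genes. On the deposited signals (median of all genes 0.42) only Cldn4, Cldn9 and Cldn15 of the 7 were lower with both kits. Cldn15, a pore-forming claudin of the small intestine, had 61.05 and 47.1 in CD11b-positive against 108 and 97.5 in CD11b-negative arrays (1.87-fold, limma adjusted p = 0.0117 with the block, and 0.129 with the block on the deposited signals). Cldn4 had 46.6 and 62.5 against 85.8 and 161 (2.12-fold, limma adjusted p = 0.00203 with the block). Cldn2, a pore-forming claudin of crypts, was uneven, at 24.8 and 3.71 in CD11b-positive against 30.5 and 56.9 in CD11b-negative arrays (limma adjusted p = 0.0322 with the block), and so was Cldn23, at 23.9 and 9.02 against 29.2 and 51.6 (limma adjusted p = 0.0858 with the block). The difference of both lay mostly in the 3' IVT Express pair. Cldn2 passed the blocked fit under 2 of 5 scalings (highest limma adjusted p = 0.0756), and its log2 difference of -1.71 was -0.53 when its probe sets were averaged and ran from -2.74 to -0.69 on leaving out 1 array.

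Of 17 other tight junction and polarity genes tested, 8 were lower and 1 higher with both kits, where 30.5% and 31.6% of all genes were. Of the 17, 0 passed with the block and their median was -0.36. Tjp3, a relative of Tjp1, had 18.5 and 17.4 in CD11b-positive against 30.7 and 30.4 in CD11b-negative arrays (limma adjusted p = 0.374 with the block). Crb3, an apical polarity protein, had 67.1 and 76.5 against 122 and 77.4, so that its arrays of the 3' IVT Express kit were nearly equal, and its log2 difference of -0.42 reversed to 0.0275 on the deposited signals. Cxadr, an adhesion molecule of the junction, had 10.2 and 8.38 against 22.8 and 13.6, and Jam3, better known from endothelium, 15.1 and 19.5 against 9.53 and 5.19.

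Of 10 adherens junction genes 9 were lower and 1 higher with both kits, with a median of -0.58, and 2 fell with the block. Among all genes 30.5% were lower and 31.6% higher with both kits, and 4.14% fell with the block. On the deposited signals (median of all genes 0.42) only Jup, Cdh17 and Plekha7 of the 10 were lower with both kits. Cdh17, a cadherin of the intestinal epithelium, had 87.4 and 47.2 in CD11b-positive against 162 and 143 in CD11b-negative arrays (2.30-fold, limma adjusted p = 2.85e-04 with the block). Ctnnb1, beta-catenin, which most cells express, had 890.5 and 806 against 1212 and 992 (1.29-fold, limma adjusted p = 0.0224 with the block), but it passed under 1 of 5 scalings and its direction reversed to 0.10 when its probe sets were averaged, to 0.21 on the deposited signals and to 0.0228 after median centring. Nectin2 and Lima1 had log2 differences of -0.84 and -1.08 and did not pass (limma adjusted p = 0.114 and 0.0990 with the block). Of 8 desmosome genes 7 were lower and 1 higher with both kits, with a median of -0.61. On the deposited signals only Dsc2, Evpl and Perp of the 8 were lower with both kits. Desmoplakin (Dsp) was 1.90-fold and Perp 1.82-fold lower (limma adjusted p = 0.0288 and 0.00860 with the block), while the desmosomal cadherins Dsg2 and Dsc2 had log2 differences of -0.66 and -0.82 without passing (0.0611 and 0.267). Dsp passed the blocked fit under 3 of 5 scalings and Perp under 4 (highest limma adjusted p = 0.105 and 0.191).

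Epithelial surface and transcription genes had a median of -0.84 over 17 genes. With both kits 15 were lower and 1 higher, against 30.5% and 31.6% of all genes. With the block 8 fell, Cdh17 among them, against 4.14% of all genes. Lgals4, a lectin of the gut lining, had 266 and 133 in CD11b-positive against 530 and 404 in CD11b-negative arrays (2.44-fold, limma adjusted p = 7.99e-07 with the block). Vil1, villin of the microvilli, was 1.77-fold lower (limma adjusted p = 0.0100 with the block, passing under 3 of 5 scalings). The count of 8 in this list was 3 in the blocked fit on the deposited signals, 6 after median centring, 9 with a common trimmed mean and 8 with cyclic loess. Cdx2, the intestinal transcription factor, had 17.8 and 12.6 in CD11b-positive against 41.3 and 36.9 in CD11b-negative arrays and did not pass (limma adjusted p = 0.0519 with the block).

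Markers of other cells moved in their own ways. Markers of plasma cells, the usual bearers of IgA in the gut, summed to 40166 and 41199 in CD11b-positive against 41959 and 44081 in CD11b-negative arrays. Most of each sum came from the bright Jchain, Xbp1 and Mzb1. Quantile normalization gives probe sets of the same rank the same signal, so the closeness of these sums was partly set by the scaling. Jchain, for example, was at 12202 on both 3' IVT Express arrays, but as deposited at 13545 in CD11b-positive and 13422 in CD11b-negative cells. Of the 9 markers 8 were lower with both kits, against 30.5% of all genes, with a median of -0.17 and 1 passing with the block. That 1 was Sdc1, which epithelia express as well, at 3472 and 4155 in CD11b-positive against 5625 and 5941 in CD11b-negative arrays (1.52-fold lower, limma adjusted p = 8.98e-06 with the block, and 0.469 with the block on the deposited signals). In the blocked fit 0 to 4 of the 9 plasma cell markers were lower and 0 to 1 higher over the 5 scalings. The direction of these markers also depended on scaling. On the deposited signals (median of all genes 0.42) all of them but Sdc1 were higher in CD11b-positive arrays with both kits. Irf4, for example, then had 600 and 760 in CD11b-positive against 416 and 635 in CD11b-negative arrays. Lymphocyte markers (T, NK and innate lymphoid cells), among them the lymphocytes that live within the gut epithelium, had a median of -0.89 over 12 genes. With both kits 9 of these markers were lower and 1 higher, against 30.5% and 31.6% of all genes. With the block 7 of the markers fell, against 4.14% of all genes. The summed signal of the lymphocyte markers was 2956 and 1479 in CD11b-positive against 5953 and 2165 in CD11b-negative arrays. Nkg7, a cytotoxic granule protein, had 45.8 and 32.5 against 101 and 68.2, Ccl5 502 and 291 against 1273 and 495, and Cd8a 44.6 and 40.3 against 123 and 55.1. Cd4 was the 1 higher with both kits, with log2 differences of 1.42 and 0.03. Cd3e and Cd3d had mixed signs, at -1.85 and -1.14 with the One-Cycle and 0.13 and 0.43 with the 3' IVT Express kit. In the blocked fit 2 of the 12 were lower on the deposited signals, 4 after median centring, 7 with a common trimmed mean and 5 with cyclic loess. The shares of all genes lower in those fits were 1.22%, 1.83%, 3.32% and 3.68%. Ccl5 passed under 5 of 5 scalings, Nkg7 under 4 and Cd8a under 2. For these markers the median was -1.12 with the One-Cycle and -0.42 with the 3' IVT Express kit, the other way round from the epithelial members.

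Macrophage and dendritic cell markers summed to 652 and 504 in CD11b-positive against 455 and 396 in CD11b-negative arrays, with 5 of 9 higher and 3 lower with both kits, where 31.6% of all genes were higher with both. Itgax, the integrin CD11c, had 98.9 and 126 in CD11b-positive against 59.4 and 61.7 in CD11b-negative arrays and rose with the block (1.81-fold, limma adjusted p = 0.0132, passing under 5 of 5 scalings), and C1qb, a complement chain made by macrophages, had 58.9 and 34.1 against 16.1 and 21.01 (limma adjusted p = 0.0527 with the block). The log2 difference of C1qb, 1.16, was 0.76 without probe sets that may cross-hybridise. The 3 lower with both kits were Csf1r, Adgre1 and Mertk, at -0.11, -0.11 and -0.56. Markers of stroma and endothelium, some of which carry Tjp1, summed to 1692 and 2067 in CD11b-positive against 1175 and 2019 in CD11b-negative arrays. Most of each sum was Vim (vimentin, named after its value was seen) alone, at 1449 and 1810 against 942 and 1717. The list had a median log2 difference of -0.20, with 3 of 11 lower, 3 higher with both kits and 1, Vim, rising with the block. Over all genes these shares were 30.5%, 31.6% and 3.73%. Kdr, the endothelial receptor with the smallest p of that list, had 25.2 and 1.98 against 20.4 and 33.01 (limma adjusted p = 0.877). In the blocked fit 5 of the 9 macrophage and dendritic cell markers were higher on the deposited signals and 4 after median centring. Those fits also called 3655 and 2205 of all 12656 genes higher. Under the quantile, trimmed mean and cyclic loess scalings 1 of the 9 was higher. Vim passed under 3 of 5 scalings. No signal of any listed gene tested was at 0 in the deposited values. Whether these markers had a part in the epithelial result was not tested.

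**Figure D5:**
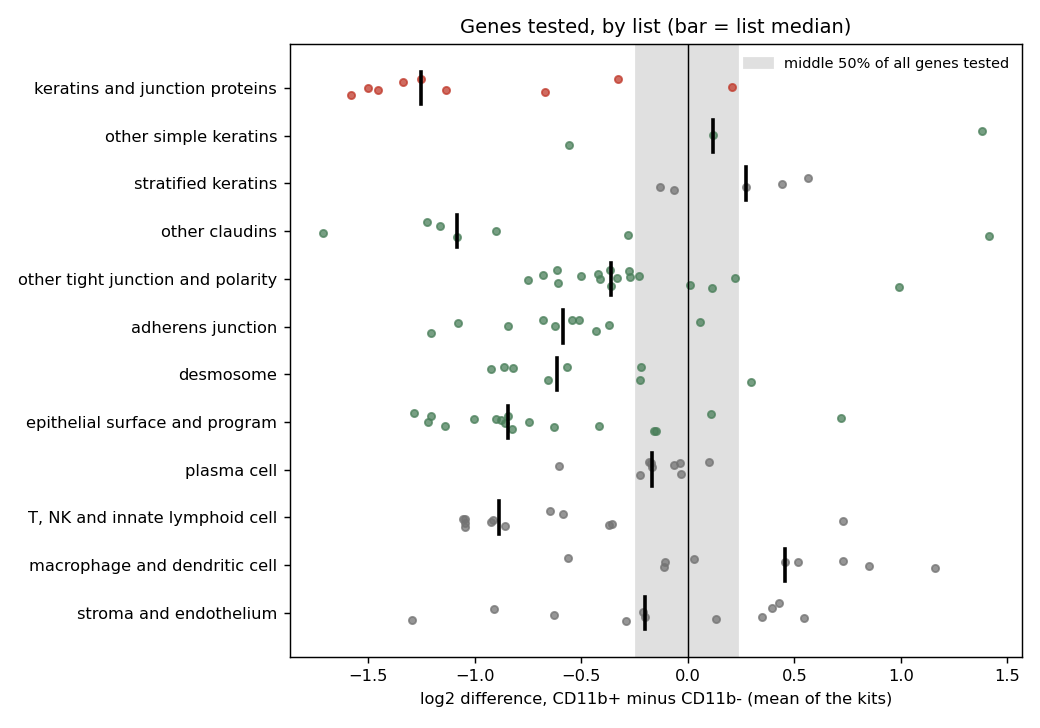
Log2 difference, CD11b-positive minus CD11b-negative (mean of the kits), of every gene tested in each list; each point is a gene, black bars are list medians and the grey band holds the middle 50% of all genes tested (-0.24 to 0.23). The 9 keratins and junction proteins at the top have their median at -1.25, and the stratified keratins at 0.27.

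The genes whose levels over the 4 arrays were most like the members' median profile, by Euclidean distance between centred log2 values, were Adra2c (0.12), Plpp2 (0.14), Selenbp1 (0.16), Phlda1 (0.17) and Adam1b (0.18), out of 12636 compared. Plpp2, a lipid phosphatase, had 62.3 and 45.5 in CD11b-positive against 132 and 127 in CD11b-negative arrays, and Phlda1 223 and 172 against 402 and 500.1. Adra2c and Adam1b were weak, each with at least 1 CD11b-positive array below the low-signal filter. Among the members themselves the distance ran from 0.11 for Krt18 to 1.45 for Tjp1. Over 4 arrays, many genes can resemble a profile, so these distances are descriptions.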

How the data were processed

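Each deposited value is a linear intensity of 1 probe set. The submitters' processing notes name MAS5 and Affymetrix Expression Console, and the sources used here give no version, setting or scaling target. The file holds 45101 probe sets, of which 64 controls were left out and 34945 name 1 gene in the platform annotation. Signals were quantile-normalized (limma 3.58.1, R 4.3.3), 3 was added, and log2 taken. Probe sets whose mean log2 value exceeded the 40th percentile (a signal of about 9.51) were kept, with the brightest per gene. Groups followed the source names, and arrays were paired by the kit that the labels name, not by replicate number. The 12645 genes were fitted with lmFit and eBayes (trend, 2-sided, Benjamini-Hochberg over all genes), without a block and, as an alternative, blocked on labelling kit. The labels put 1 array of each fraction in each kit, and deviations of same-kit arrays from fraction means correlated across genes (r = 0.387). Alternatives were other scalings, pseudocounts, filters and probe set rules, no trend, and leaving out each array.

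The members, the 11 other lists and the tests were chosen with earlier results of these data known. Named genes followed a rule: all members, Itgam, per list up to 4 with the smallest p (fit without the block), and the 5 nearest profiles. Vim, Csf1r, Adgre1, Mertk, Jchain, Xbp1, Mzb1, Irf4, Cd4, Cd3e, Cd3d, Cldn9, Jup, Plekha7 and Evpl were named besides, after their values were seen. Listed genes not matched to a probe set are not analysed here. With 2 arrays a fraction, the number of arrays limits the precision.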

Additional observations from a re-analysis of the deposited data

How the results depend on the processing

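By limma without the block, 0 genes were lower and 0 higher at an adjusted p under 0.05 under every scaling, pseudocount, filter, probe set rule and trend setting tried (445 lower and 397 higher at an unadjusted p under 0.05 in the setting reported); leaving out 1 array gave 0 to 23 lower and 0 to 2 higher, and 0 to 2 members called. The 2 members were Krt8 and Krt19, without CD11b-positive replicate 1 (limma adjusted p = 0.00901 and 0.0109), where the lone CD11b-positive array is assumed to vary like the others and the kits are uneven. Entering the kit as a replicate block, 524 genes were lower, 472 higher and 7 members called. Combined with the block, a choice added after seeing the data, the signals as deposited gave 154 lower, 3655 higher and 6 members; median centring 232, 2205 and 6; a common trimmed mean 420, 407 and 7; and cyclic loess 466, 358 and 7. The members' median of -1.25 was -0.79 on the deposited signals, with and without the block, and ran from -1.51 to -1.07 on leaving out 1 array. The count lower with both kits was 6 as deposited and 7 after median centring, and 5 of 5 without probe sets whose suffix (_a, _s or _x) marks several transcripts or sequences as possible targets. Krt8, Epcam, Cldn3 and Tjp1 have only such probe sets, and those used for them carry _a, which stands for transcripts of 1 gene. With the filter at the 70th percentile, Tjp1 was not tested and 8 members were left.

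Directions reversed for weak differences. On the deposited signals, with and without the block, Krt20 was at 0.0214, Crb3 at 0.0275 and Ctnnb1 at 0.21; Ctnnb1 was at 0.0228 after median centring and at 0.10 when its probe sets were averaged. Krt222 was at -0.0085 with a common trimmed mean with and without the block. On leaving out 1 array, Krt222 ran from -0.0827 to 0.316, Krt6a from -0.0871 to 1.21 and Tjp1 from -0.0090 to 0.421. The causes were not tested. Weak signals, such as those of Tjp1, or of Krt80 and Cldn2, which in part lay below the low-signal filter, limit what could be detected.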
